A study of Mus musculus with 9 samples.

Results

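The comparison described here sets MH-S cells given lipopolysaccharide (LPS) for 4 h against untreated MH-S cells, 3 libraries against 3 of the 9 in the series. MH-S is a line established from mouse alveolar macrophages, the resident phagocytes of the lung air spaces. The LPS group had 1 µg/ml LPS in its medium, and the CON group had medium alone; both were grown in serum with mercaptoethanol and antibiotics, and the labels name no genetic change. The other 3 libraries (SUR, suramin with LPS according to the protocol) are not described. They entered the filter on low counts, the scaling, and the estimates of the spread and of the effect of the replicate number. All 14771 genes of the deposited mRNA table were considered, and 11281 had counts enough to be tested (11135 with the CON and LPS libraries alone). Library totals in the 2 groups ran from 15729402 counts in LPS 2 to 16613604 in LPS 1. No label says that the replicates were separate cultures, so the p-values measure the spread between these libraries, which may be technical. The labels describe 1 cell line only.

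LPS is an outer membrane component of Gram-negative bacteria. With the co-receptor CD14 it activates Toll-like receptor 4, which signals through adaptor proteins to NF-kappaB, to the MAP kinases and to interferon regulatory factors. In macrophages this programme is best known for cytokines, and it also reaches receptors, metabolic enzymes and the machinery that limits the response. Cytokine and chemokine genes are left aside here except as a point of reference (31 of 37 tested members rose, median log2 fold change 4.09).

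Levels are given as CPM, the counts of a gene scaled to a fixed library total, after scaling between libraries, and as FPKM, which also divides by transcript length, where levels of different genes are set side by side. A log2 fold change is the LPS minus CON difference estimated within replicate numbers, SE is its standard error, and a gene is said to have risen or fallen, or to be called, when its adjusted p was under 0.05. Adjusted p-values come from the quasi-likelihood test of edgeR, by the method of Benjamini and Hochberg over all 11281 genes. Folds are 2 raised to that difference, so they are averages within replicate numbers and not ratios of the group means. Means are followed by the SD over 3 libraries. The 17 general macrophage markers were all tested, and their summed level was 8276 to 10847 CPM in CON and 9110 to 12134 CPM in LPS. Of 24 markers of alveolar macrophages 9 had counts enough to be tested (summed level 892 to 1679 CPM in CON and 814 to 1486 CPM in LPS). Car4, Ear1, Ear2, Ear6, Fabp1, Krt19, Krt79 and the scavenger receptor gene Marco were absent from the table or at 0 in both groups. Siglecf, Pparg and Chil3 were not tested and stayed at or under 0.179, 0.292 and 0.0681 CPM in every CON and LPS library. The labelled cell type therefore rests on the general macrophage genes. Summed markers of epithelial cells stayed at or under 0.609 CPM and those of lymphocytes at or under 1.1 CPM in every library. Markers of fibroblasts and endothelium summed to 90.7 to 231 CPM in CON and 95.4 to 248 CPM in LPS, nearly all of it from Vwf (89.4 to 230 and 93.4 to 247 CPM). Those of neutrophils, mast cells and dendritic cells summed to 12.1 to 18.9 and 12.4 to 14.8 CPM, mostly from Zbtb46 (10.5 to 17.9 and 11 to 13.7 CPM).

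LPS changed a large part of the measured genes by small amounts and far fewer by at least 2-fold. In all 2269 genes rose, 20.1% of those tested, and 2445 fell, 21.7%. Of these, 413 rose at least 2-fold (3.66% of tested genes) and 287 fell at least 2-fold (2.54%). The rises reached further than the falls: leaving out cytokines, the largest rise among genes whose log2 CPM averaged 4 or more over the 9 libraries was 33-fold (Acod1) and the largest fall 5.08-fold (Arrdc3). Acod1 had a log2 fold change of 6.90 without CON 1. Acod1 had a log2 fold change of 4.39 without CON 3. All 413 strong rises and 285 of the 287 strong falls had the same direction within replicate numbers 1, 2 and 3. Of these strong changes 402 rises and 268 falls had no overlap between the 3 LPS and the 3 CON libraries. Among all called genes 1546 of 2269 rises and 1664 of 2445 falls had none. Called genes were picked from these same libraries, so such counts are partly fixed by the choice. The same counts over all tested genes are not given here, so no excess over them can be read from these numbers. The genes that rose at least 2-fold spanned a median of 18.6 kb of the genome from start to end and those that fell 13.4 kb, against 26 kb for all tested genes.

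The split of calls depended on the scaling, because most changes were small. Upper-quartile scaling gave 1468 rises (13%) and 4018 falls (35.6%), with 367 (3.25%) and 347 (3.08%) at least 2-fold, and it placed the median gene at -0.10 on the log2 scale. FPKM gave 1198 rises (10.6%) and 4832 falls (42.8%), with 344 (3.05%) and 315 (2.79%) at least 2-fold and the median gene at -0.14. Without the replicate block, called unblocked below, 1013 genes rose (8.98%) and 1056 fell (9.36%), and 387 (3.43%) and 244 (2.16%) of them changed at least 2-fold. The count of rises and falls in each gene list is therefore followed, in parentheses, by the same counts without CON 1, unblocked, with upper-quartile scaling and on FPKM, to be read against these shares. Where only rises are given unblocked, no fall was called by edgeR, and at most 1 member fell at an unadjusted p under 0.05. Directions are stated with the scaling used here.

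CON 1 stood apart from CON 2 and CON 3 in the genes that LPS raised. Over the 413 strong rises its log2 level exceeded the mean of the other CON libraries by a median of 0.46 (interquartile range 0.04 to 0.93), while CON 3 lay lower by a median of -0.35. The 287 strong falls lay lower in CON 1, by a median of -0.18. Over all tested genes the median was 0.02 (interquartile range -0.19 to 0.20). Some macrophage markers not called with LPS were lower in both libraries numbered 1. Ctsk stood at 11.2, 111 and 109 CPM in CON 1 to 3 and 11.5, 114 and 109 CPM in LPS 1 to 3. Lyz2 stood at 1781, 3683 and 3600 CPM in CON 1 to 3 and 1760, 3633 and 3890 CPM in LPS 1 to 3. Others differed little, such as Cd68 (971, 987 and 1035 CPM in CON 1 to 3). Leaving CON 1 out gave 2416 rises (21.2%) and 2169 falls (19.1%), of which 455 (4%) and 306 (2.69%) were at least 2-fold. Of the 413 strong rises 410 were called again at 2-fold or more without CON 1, and of the 287 strong falls 266. Every called gene kept its direction. The folds grew: over the 413 genes the log2 fold change rose by a median of 0.17, with 69 genes more than 1.5-fold larger and 1 smaller by as much. The plot of log2 fold changes with and without CON 1 shows this growth at the upper end. What set CON 1 apart was not tested.

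**Figure D1:**
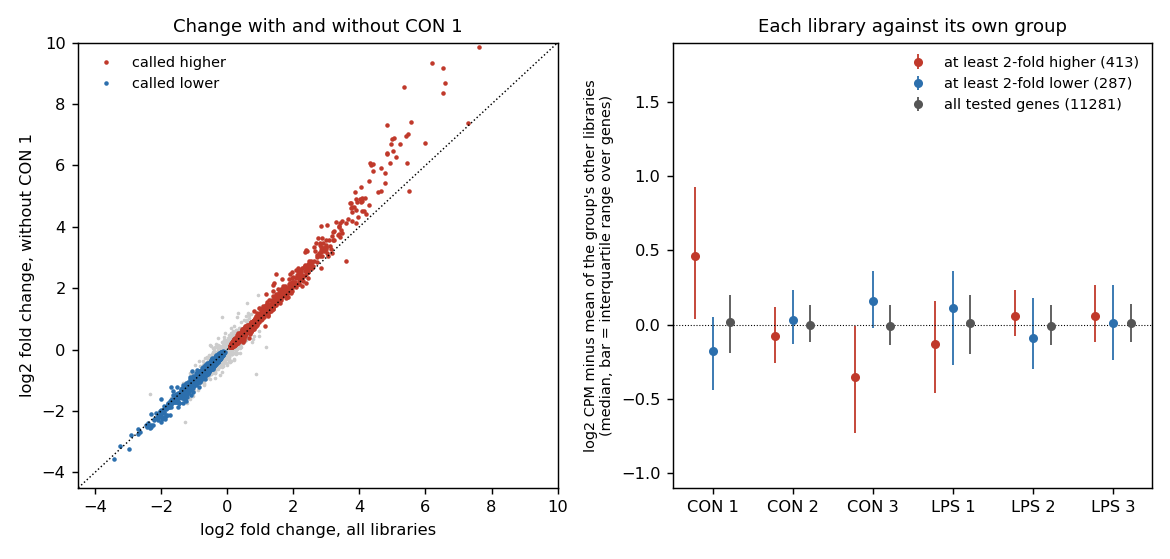
Left, log2 fold change (LPS minus CON) of each tested gene with all libraries on the x axis and without CON 1 on the y axis, with genes called higher in red, called lower in blue and others in grey, and a dotted line where both are equal. Right, the difference in log2 CPM between each library and the mean of its group's other libraries, as the median (point) and interquartile range (bar) over genes: CON 1 lies above its group by 0.46 in the 413 genes raised at least 2-fold, and points for large rises leave the dotted line upward.

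The 15 largest rises were taken outside the cytokine list, among genes whose log2 CPM averaged 4 or more and whose CON and LPS libraries did not overlap. Weakly expressed genes described further on, such as Traf1, Cd83 and Dusp8, rose as much as many of these. The 15 held an itaconate-making enzyme, a prostaglandin-making enzyme, 2 regulators of NF-kappaB signalling and antiviral genes. Acod1, which encodes the enzyme that makes itaconate from a citric acid cycle intermediate, stood at 33.9, 5.84 and 1.13 CPM in CON 1 to 3 and 409, 408 and 412 CPM in LPS 1 to 3 (log2 fold change 5.05, SE 0.53, adjusted p = 2.03e-05). Ptgs2, the inducible cyclooxygenase, stood at 41.1, 6.51 and 1.96 CPM in CON 1 to 3 and 523, 320 and 389 CPM in LPS 1 to 3 (log2 fold change 4.85, SE 0.46, adjusted p = 1.08e-05). For both genes the CON libraries spread more widely than the LPS libraries, with CON 1 highest and CON 3 lowest. The groups did not overlap, which the selection required. Next in size among the 15 were Nfkbiz, an atypical IkappaB protein that acts in the nucleus (25.4-fold), Ifit1, an antiviral RNA-binding protein (21.3-fold), Ccrl2, an atypical chemoattractant receptor (20.5-fold), and Tnfaip3, the ubiquitin-editing enzyme A20 (19.5-fold). Csrnp1, a nuclear protein with a transcriptional role, rose 18.2-fold, the stress gene Gadd45a 16.8-fold, the MAP kinase phosphatase gene Dusp1 16.4-fold and Rasgef1b, an exchange factor for Ras-like GTPases, 15.1-fold. The set was completed by the ubiquitin-like modifier Isg15 (15-fold), the heparan sulphate proteoglycan Sdc4 (14.9-fold), the kinase Pim1 (14.2-fold), the antiviral enzyme Rsad2 (13.9-fold) and Marcksl1, an actin-binding substrate of protein kinase C (13.7-fold). Sdc4 was abundant after LPS: it stood at 373, 136 and 73.8 CPM in CON 1 to 3 and 2810, 2294 and 2421 CPM in LPS 1 to 3. For Acod1, Ptgs2, Nfkbiz, Ifit1, Ccrl2, Tnfaip3, Csrnp1, Gadd45a, Dusp1, Rasgef1b, Isg15, Sdc4, Pim1, Rsad2 and Marcksl1 the log2 fold changes without CON 1 were 6.90, 6.41, 5.93, 5.81, 6.01, 5.49, 4.93, 4.93, 4.82, 4.82, 4.91, 4.54, 4.64, 4.64 and 4.50. For Acod1, Ptgs2, Nfkbiz, Ccrl2 and Tnfaip3 the log2 fold changes without CON 3 were 4.39, 4.25, 3.81, 3.72 and 3.47. For Nfkbiz and Ifit1 the log2 fold changes without LPS 1 were 5.32 and 5.23.

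The 15 largest falls among genes that met the same conditions had varied roles. Arrdc3, an arrestin-domain gene, stood at 73, 81.6 and 77.6 CPM in CON 1 to 3 and 18.7, 15 and 12.4 CPM in LPS 1 to 3 (log2 fold change -2.34, SE 0.14, adjusted p = 2.50e-07). Its relative Txnip, which restrains glucose uptake and binds thioredoxin, fell 3.54-fold. Dusp6, the phosphatase of ERK, stood at 58.4, 55.5 and 63.6 CPM in CON 1 to 3 and 15.1, 12.7 and 8.71 CPM in LPS 1 to 3 (log2 fold change -2.30, SE 0.17, adjusted p = 1.40e-06). For both genes every LPS library lay at less than every CON library, a separation that the selection required. Gpr146, a G protein-coupled receptor, fell 4.87-fold, the uncharacterised AI467606 4.63-fold, the pro-apoptotic BH3-only gene Bmf 4.1-fold and Ddit4, an inhibitor of TORC1 signalling, 4.09-fold. Inka1, an inhibitor of p21-activated kinase, fell 3.91-fold, and Tsc22d3, a glucocorticoid-induced leucine zipper gene, 2.86-fold. Klf10 (4.09-fold), Hhex (3.57-fold) and Zfp398 (2.88-fold) encode transcription factors. Sema4c, a semaphorin, fell 3.37-fold, the myeloid receptor gene Cd300lb 3.22-fold and Pwwp2b, a chromatin reader, 2.84-fold. Dusp6 had the largest adjusted p of the 15.

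Transcription factor genes fell more often than they rose. Among 916 tested genes that the deposited table annotates as transcription factors, 182 rose and 363 fell, 47 and 101 of them at least 2-fold. The NF-kappaB genes rose, whereas zinc finger genes of the C2H2 type fell more often than they rose, 237 against 44 of 406 tested. NF-kappaB is a family of dimers held in the cytoplasm by IkappaB proteins until a kinase complex marks these for destruction. All 11 tested NF-kappaB and IkappaB genes rose, each at least 2-fold, with a median log2 fold change of 2.35; with upper-quartile scaling and on FPKM 10 of the 11 rose at least 2-fold. Of the subunits, Rel stood at 63.9, 40.7 and 29.8 CPM in CON 1 to 3 and 314, 314 and 317 CPM in LPS 1 to 3 (log2 fold change 2.85, SE 0.16, adjusted p = 1.75e-07). Relb stood at 28.9, 20 and 16.4 CPM in CON 1 to 3 and 97, 123 and 116 CPM in LPS 1 to 3 (log2 fold change 2.36, SE 0.16, adjusted p = 8.45e-07). Both had CON 1 as the highest CON library and no overlap between groups. Nfkb1, which encodes the p105 precursor, changed less, from 126 ± 5.77 CPM in CON to 264 ± 10.5 in LPS (log2 fold change 1.07, adjusted p = 2.00e-08). Of the inhibitors, Nfkbie rose from 17.4 ± 7.97 CPM in CON to 162 ± 32.9 in LPS (log2 fold change 3.19, adjusted p = 3.39e-06). Nfkbia, the classical IkappaB-alpha, rose from 121 ± 108 CPM in CON to 711 ± 93.6 in LPS (log2 fold change 2.75, adjusted p = 0.00133). Nfkbid, another nuclear IkappaB protein, rose 5.11-fold. On the length-corrected scale Nfkbiz stood at 33.1 FPKM in CON and 549 FPKM in LPS, and Nfkbia at 95.7 FPKM in CON and 508 FPKM in LPS. Nfkbia lay above Nfkbiz in each CON library and in LPS 3, and below it in LPS 1 and LPS 2, so after LPS their order differed between libraries. For Nfkbie, Nfkbia and Nfkbiz the log2 fold changes without CON 1 were 3.83, 3.65 and 5.93. For Nfkbia and Nfkbiz the log2 fold changes without CON 3 were 2.05 and 3.81. Nfkbiz had a log2 fold change of 5.32 without LPS 1.

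Promoters of regulators that rose are shown for the sites of NF-kappaB, interferon-responsive factors and CREB. Matches to each of these, and to some other motifs given below, were more frequent among strong rises than among all tested genes. The sequences are the 250 bases before the RefSeq gene start (build GRCm38.p6), 5′ to 3′ on the gene's strand, with each match in capitals. Rel, Nfkbie and Irf1 carry the NF-kappaB consensus, Isg15 the interferon-stimulated response element (ISRE, GAAANNGAAA) and Dusp1 the cyclic AMP response element (CRE, TGACGTCA). Rel lies at chr11:23770970-23771219, minus strand, Nfkbie at chr17:45555450-45555699, plus strand, Irf1 at chr11:53769764-53770013, plus strand, Isg15 at chr4:156200819-156201068, minus strand and Dusp1 at chr17:26508473-26508722, minus strand.
Rel: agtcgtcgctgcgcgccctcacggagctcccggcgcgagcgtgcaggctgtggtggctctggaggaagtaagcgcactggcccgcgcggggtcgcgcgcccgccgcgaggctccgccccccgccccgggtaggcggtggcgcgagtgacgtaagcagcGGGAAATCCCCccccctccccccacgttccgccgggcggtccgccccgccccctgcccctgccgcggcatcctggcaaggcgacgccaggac
Nfkbie: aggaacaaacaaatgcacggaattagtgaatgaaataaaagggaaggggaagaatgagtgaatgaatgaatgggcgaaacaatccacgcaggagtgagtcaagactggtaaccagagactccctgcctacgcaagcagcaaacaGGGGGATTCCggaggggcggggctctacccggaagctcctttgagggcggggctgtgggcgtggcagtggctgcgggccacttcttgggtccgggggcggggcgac
Irf1: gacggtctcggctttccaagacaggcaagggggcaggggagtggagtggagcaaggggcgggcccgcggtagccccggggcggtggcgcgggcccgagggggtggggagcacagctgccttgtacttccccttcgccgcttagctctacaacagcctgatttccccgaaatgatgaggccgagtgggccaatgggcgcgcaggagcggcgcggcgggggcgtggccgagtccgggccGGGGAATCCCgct
Isg15: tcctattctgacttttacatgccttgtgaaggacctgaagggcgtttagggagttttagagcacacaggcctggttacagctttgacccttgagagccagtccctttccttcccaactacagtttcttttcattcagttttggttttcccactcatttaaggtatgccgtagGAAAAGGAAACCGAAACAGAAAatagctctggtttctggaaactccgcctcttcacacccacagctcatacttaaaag
Dusp1: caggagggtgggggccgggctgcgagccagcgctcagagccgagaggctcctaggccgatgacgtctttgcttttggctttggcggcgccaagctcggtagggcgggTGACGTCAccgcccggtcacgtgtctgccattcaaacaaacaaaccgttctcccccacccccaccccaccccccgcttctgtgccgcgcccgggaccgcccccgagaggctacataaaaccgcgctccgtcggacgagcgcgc
The capitals of Rel hold 2 overlapping matches and those of Isg15 3. The first match starts 92 bases before the gene start in Rel, 106 in Nfkbie, 13 in Irf1, 78 in Isg15 and 143 in Dusp1.

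Promoters of 300 bases (250 before to 50 after the start) were found for 9140 of the 11281 tested genes, 329 of the strong rises and 239 of the strong falls, and both strands were searched. The NF-kappaB consensus stood in 13.4% of the promoters of strong rises, in 3.35% of those of strong falls and in 4.99% of all tested genes (4.35% of the 27025 genes with a promoter in the table). In the same order, strong rises, strong falls, all tested and, in parentheses, the whole promoter table, the ISRE stood in 10.3%, 2.09% and 3.16% (3.49%). The CRE stood in 5.47%, 3.35% and 3.42% (1.88%). The shares were larger still for the 61 genes that rose at least 8-fold, at 23% for the NF-kappaB consensus, 19.7% for the ISRE and 8.2% for the CRE. In these 61 genes the AP-1 site and the TATA box stood in 24.6% each and the motif GGGTGTGG in 14.8%. The E-box stood in 8.2% of them and the ETS site in 3.28%. The AP-1 site TGANTCA was found in 9.73% of strong rises, 3.77% of strong falls and 4.79% of tested genes (7.93%), and the TATA box TATAAA in 16.4%, 8.79% and 6.84% (14.2%). The E-box CACGTG, with 7.6%, 6.69% and 10.6% (7.24%), and the ETS site ACTTCCG, with 8.51%, 7.95% and 14.9% (6.59%), had smaller shares in both changed groups than in all tested genes. Of the other motifs searched, CCAAT was found in 38%, 45.2% and 39.8% (37.9%), GGGTGTGG in 6.38%, 4.6% and 3.88% (3.57%), TGACGCA in 3.04%, 4.18% and 4.02% (2.19%) and the CArG box in 1.52%, 1.67% and 1.14% (1.57%). A match was counted once per promoter whether or not it overlapped another motif, and it describes letters only.

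The bZIP factors of the AP-1, ATF, MAF and CREB families, which dimerise and bind DNA through a leucine zipper, rose more often than they fell: 19 of 35 tested members rose and 4 fell (21 and 4 without CON 1, 16 and 3 unblocked, 19 and 5 on upper quartiles, 16 and 6 on FPKM), and 12 rose at least 2-fold. Maff, a small MAF protein, stood at 14.5, 4.81 and 2.56 CPM in CON 1 to 3 and 92.4, 97.7 and 100 CPM in LPS 1 to 3 (log2 fold change 3.73, SE 0.31, adjusted p = 3.82e-06). Atf3, a stress-induced repressor and activator, stood at 235, 143 and 111 CPM in CON 1 to 3 and 1317, 1106 and 1011 CPM in LPS 1 to 3 (log2 fold change 2.87, SE 0.11, adjusted p = 1.80e-08). Neither gene's groups overlapped, and Atf3 had the tighter CON group of the 2. Fosl1 rose 4.19-fold, Junb 4.01-fold, Jun 3.18-fold and Nfil3, a factor that also binds clock target sites, 3.19-fold. Cebpa, a myeloid lineage factor, fell from 52.8 ± 1.2 CPM in CON to 29.5 ± 2.17 in LPS (log2 fold change -0.84, adjusted p = 7.08e-07). Maf fell 1.69-fold. Ddit3, the stress factor CHOP, fell from 19.5 ± 1.23 CPM in CON to 10.1 ± 1.71 in LPS (log2 fold change -0.94, adjusted p = 6.69e-06). Atf7, Atf5 and Bach1 were abundant and were not called, at log2 differences of 0.01, 0.05 and -0.10. Maff had a log2 fold change of 4.77 without CON 1. Maf was not called without the block (adjusted p = 0.349).

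Immediate-early and related zinc finger factors showed the same excess of rises (14 of 27 tested members rose and 6 fell; 17 and 5 without CON 1, 12 and 3 unblocked, 13 and 6 on upper quartiles, 13 and 6 on FPKM). Egr2 stood at 10.9, 5.36 and 5.24 CPM in CON 1 to 3 and 58.7, 75.1 and 95.8 CPM in LPS 1 to 3 (log2 fold change 3.40, SE 0.23, adjusted p = 8.20e-07). Klf6, an abundant Krüppel-like factor, stood at 187, 149 and 107 CPM in CON 1 to 3 and 766, 804 and 760 CPM in LPS 1 to 3 (log2 fold change 2.42, SE 0.12, adjusted p = 6.49e-08). Nr4a2, an orphan nuclear receptor, rose from 3.34 ± 0.536 CPM in CON to 15 ± 2.03 in LPS (log2 fold change 2.17, adjusted p = 1.34e-07). Klf7 rose 3.67-fold and Egr3 3.59-fold. Klf10, by contrast, stood at 41.3, 47.4 and 29.4 CPM in CON 1 to 3 and 11.6, 11.3 and 6.07 CPM in LPS 1 to 3 (log2 fold change -2.03, SE 0.1, adjusted p = 8.61e-08). Sp3, which binds GC boxes, fell from 103 ± 1.66 CPM in CON to 62.8 ± 2.95 in LPS (log2 fold change -0.72, adjusted p = 4.08e-07). Members of 1 family thus moved strongly in opposite directions, and Klf2 and Klf4 were not called (log2 differences 0.21 and 0.20). Egr2 had a log2 fold change of 3.99 without CON 1. Klf2 was called without CON 1 or LPS 1 (adjusted p from 0.00191 to 0.0145) and Klf4 without LPS 1 (adjusted p = 0.0182).

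Factors of macrophage and lymphoid differentiation rose more often than they fell (19 of 37 tested members rose and 5 fell; 20 and 5 without CON 1, 10 and 2 unblocked, 16 and 9 on upper quartiles, 13 and 10 on FPKM). Prdm1, the repressor Blimp-1, stood at 1.58, 2.01 and 1.67 CPM in CON 1 to 3 and 19.3, 42.6 and 35.7 CPM in LPS 1 to 3 (log2 fold change 4.20, SE 0.18, adjusted p = 3.13e-08). It was lower in LPS 1 than in the other LPS libraries but far above every CON library. Ets2 stood at 60.3, 30 and 29.1 CPM in CON 1 to 3 and 281, 218 and 216 CPM in LPS 1 to 3 (log2 fold change 2.63, SE 0.12, adjusted p = 4.70e-08), with no overlap between groups. The repressor Bcl6 rose from 29.4 ± 6.58 CPM in CON to 98.1 ± 6.65 in LPS (log2 fold change 1.75, adjusted p = 5.92e-07). The clock-linked factor Bhlhe40 rose 2.04-fold and Zeb2, a factor of tissue macrophage identity, 1.77-fold, whereas Bhlhe41 fell 1.85-fold and Id1, an inhibitor of bHLH factors, 4.76-fold. Spi1, the PU.1 master factor of macrophages, was abundant and rose 1.35-fold (log2 fold change 0.43, adjusted p = 6.50e-05). Mef2a and Mef2c, as abundant, were not called (log2 differences 0.08 and 0.08).

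IRF and STAT factors carry interferon and cytokine signals (3 of 14 tested members rose and 4 fell; 3 and 2 without CON 1, 2 and 1 unblocked, 3 and 7 on upper quartiles, 2 and 7 on FPKM). Irf1 was the only member called at 2-fold or more and stood at 59.3, 37.4 and 23.3 CPM in CON 1 to 3 and 131, 154 and 189 CPM in LPS 1 to 3 (log2 fold change 1.96, SE 0.29, adjusted p = 0.000255). Irf5, a factor of inflammatory macrophage activation, rose 1.18-fold and Irf4 1.44-fold, while Irf8, a myeloid lineage factor, fell 1.33-fold (log2 fold change -0.41, adjusted p = 3.32e-05). The abundant Stat6 and Stat3 were not called (log2 differences 0.07 and 0.08). Irf4 was not called without the block (adjusted p = 0.52).

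The remaining factor lists had a few large changes among many small ones. Of FOXO, MYC-MAX-MLX, HIF and E2F factors, 8 of 42 tested members rose and 12 fell (8 and 8 without CON 1, 6 and 4 unblocked, 7 and 16 on upper quartiles, 6 and 19 on FPKM). Myc, barely detected without LPS, stood at 0.35, 0.731 and 0.417 CPM in CON 1 to 3 and 2.98, 10.1 and 9.9 CPM in LPS 1 to 3 (log2 fold change 3.91, SE 0.23, adjusted p = 2.62e-07); LPS 1 was the lowest of its group and still above every CON library. Mxd1, which competes with MYC for their shared partner, rose from 9.74 ± 4.05 CPM in CON to 27.3 ± 4.58 in LPS (log2 fold change 1.51, adjusted p = 3.34e-06). Hif1a, the oxygen-regulated factor, rose 1.54-fold and Trp53 1.44-fold. Foxo1 fell 1.43-fold, E2f2 1.45-fold and Ahr, the aryl hydrocarbon receptor, 1.42-fold. Of SMAD, NOTCH, WNT and Hippo factors, 11 of 28 tested members rose and 5 fell (11 and 5 without CON 1, 7 and 2 unblocked, 8 and 7 on upper quartiles, 8 and 8 on FPKM). Skil, a repressor of SMAD proteins, stood at 114, 79.5 and 62.7 CPM in CON 1 to 3 and 521, 453 and 438 CPM in LPS 1 to 3 (log2 fold change 2.49, SE 0.097, adjusted p = 2.14e-08). The inhibitory Smad7 rose from 5.1 ± 1.19 CPM in CON to 11.6 ± 0.696 in LPS (log2 fold change 1.19, adjusted p = 2.68e-05); both limit TGF-beta signalling. Rbpj, the DNA-binding partner of NOTCH, rose 1.37-fold to one of the highest levels in the list, and Hivep1 and Hivep3, large zinc finger proteins, 2.32-fold and 2.58-fold. E2f2 was not called without the block (adjusted p = 0.182). Ahr was not called without CON 1, CON 3, LPS 1, LPS 3 or the block (adjusted p from 0.0684 to 0.154).

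In the list of nuclear receptors and coregulators, 5 of 27 tested members rose and 9 fell (4 and 7 without CON 1, 1 and 2 unblocked, 2 and 11 on upper quartiles, 2 and 13 on FPKM). Called members of this list moved by less than 2-fold. The list does not hold every such gene: Nr4a2 is described above. Of 6 tested genes that the deposited table annotates as RXR-like 4 fell, 1 of them at least 2-fold. The retinoic acid receptor gene Rara fell from 43.9 ± 5.25 CPM in CON to 29 ± 6.43 in LPS (log2 fold change -0.61, adjusted p = 1.57e-05). Ppargc1b, a coactivator of mitochondrial genes, fell 1.42-fold and the clock repressor Nr1d1 1.74-fold, while the coactivator Ncoa5 rose 1.35-fold. The glucocorticoid receptor gene Nr3c1 was not called (log2 difference 0.07). Clock genes split: Nfil3, Bhlhe40, Per1 (1.36-fold) and Clock (1.29-fold) rose, and Bhlhe41, Nr1d1, Tef (1.41-fold) and Cry2 (1.38-fold) fell (7 of 19 tested members rose and 5 fell; 7 and 5 without CON 1, 5 and 4 unblocked, 6 and 6 on upper quartiles, 5 and 7 on FPKM). Arntl, the partner of CLOCK, stood at 18.8 ± 2.21 (CON) and 18.7 ± 1.45 CPM (LPS) and was not called (log2 fold change 0.000, SE 0.081, adjusted p = 0.998). Rara was not called without the block (adjusted p = 0.0536). Nr3c1 was called without LPS 1 (adjusted p = 0.0204).

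Zinc finger genes of the C2H2 type made up 82 of the 287 genes that fell at least 2-fold. Most C2H2 proteins bind DNA, and those with a KRAB domain recruit a corepressor and are best known for silencing transposable elements. Of 406 tested C2H2 genes 44 rose and 237 fell, a share of 58.4% lower against 21.7% of all tested genes, with a median log2 fold change of -0.40. Within the family the falls concentrated in the genes with a KRAB domain in the deposited annotation: 162 of 236 fell (68.6%), 70 at least 2-fold, and 8 rose, with a median of -0.62. Of the 170 C2H2 genes without one, 75 fell and 36 rose (median -0.15). Among the other 510 annotated transcription factors the calls were balanced, 138 rises and 126 falls, with a median of 0.01. Leaving out CON 1 gave 161 falls and 8 rises among the KRAB genes, and the falls ran from 134 to 161 when any 1 of the 9 libraries was left out. Without the replicate block 126 fell, with upper-quartile scaling 171 and on FPKM 173. In the box plot of log2 fold changes by class the box of the KRAB genes lies lowest.

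**Figure D2:**
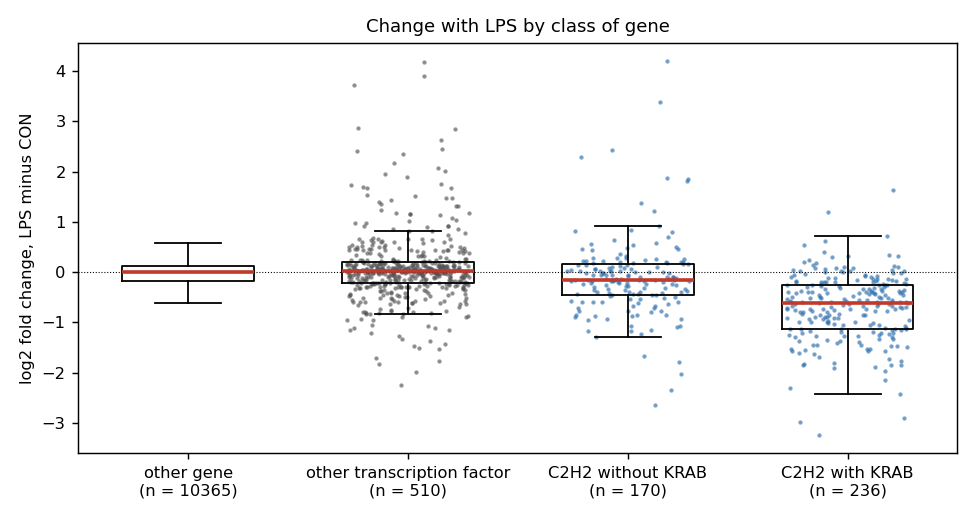
Log2 fold change (LPS minus CON) of tested genes on the y axis by class on the x axis: box, quartiles; red line, median; whiskers, up to 1.5 times the interquartile range; points, single genes (not drawn for the 10365 other genes). The median is -0.62 for the 236 C2H2 genes with a KRAB domain, -0.15 for the 170 without and 0.01 for the other 510 transcription factors.

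C2H2 genes are weakly expressed, with a median level of 10.4 CPM, so the shares are also given by level. Between 5 and 10 CPM (mean of CON and LPS) 75.7% of 74 C2H2 genes fell, against 28.6% of 811 other genes. Between 10 and 20 CPM the shares were 66.3% of 89 and 29.2% of 1341, and between 20 and 50 CPM 44.9% of 78 and 25.7% of 2682. At 50 CPM or more 35.6% of 45 C2H2 genes fell and 42.2% rose, against 14.7% and 31.8% of 4536 other genes. At each of these 4 levels the share that fell was larger among C2H2 genes. Zfp398 stood at 21, 26.7 and 27.9 CPM in CON 1 to 3 and 8.56, 8.1 and 9.44 CPM in LPS 1 to 3 (log2 fold change -1.53, SE 0.098, adjusted p = 5.15e-07). Zfp324 stood at 21.7, 18.1 and 22.6 CPM in CON 1 to 3 and 7.48, 6.26 and 9.83 CPM in LPS 1 to 3 (log2 fold change -1.40, SE 0.12, adjusted p = 3.56e-06). Zfp553 stood at 28.5, 26.7 and 30.1 CPM in CON 1 to 3 and 14.2, 12 and 11.8 CPM in LPS 1 to 3 (log2 fold change -1.16, SE 0.079, adjusted p = 7.93e-07). These last 2, and Zfp316, which fell 2.16-fold, were chosen after their values were seen, among the C2H2 genes with the largest falls. The groups did not overlap for any of these genes, which for Zfp398 the selection among the 15 largest falls required. KRAB genes lie in clusters of similar copies, so reads of single members are uncertain. Rises within the C2H2 family included those of Egr2, Klf6, Klf7 and Egr3, described above, and those of Hivep3 and Hivep1.

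Homeobox genes, a developmental family that binds AT-rich sites, fell more often than they rose. Of 40 tested members 4 rose and 13 fell (5 and 13 without CON 1, 2 and 10 unblocked, 3 and 17 on upper quartiles, 3 and 20 on FPKM). Among all tested genes 20.1% rose and 21.7% fell. Of the falls 8 were at least 2-fold, 6 of these 8 also without CON 1. Apart from Hhex, the strong falls were of weakly expressed genes, with CON means of 1.07 to 5.58 CPM. The family was not split by level. Hhex, a factor of blood and endothelial development, stood at 31.6, 42.4 and 39.7 CPM in CON 1 to 3 and 9.19, 11 and 11.6 CPM in LPS 1 to 3 (log2 fold change -1.84, SE 0.088, adjusted p = 6.98e-08). Hoxb5 (2.9-fold), Hoxb3 (2.53-fold) and Hoxa6 (2.22-fold), chosen after their values were seen, also fell, at low levels. Hlx, chosen likewise, rose from 15.6 ± 1.95 CPM in CON to 45.6 ± 6.46 in LPS (log2 fold change 1.54, adjusted p = 7.07e-07).

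Chromatin regulators that were called moved by less than 2-fold (18 of 69 tested members rose and 13 fell; 19 and 10 without CON 1, 9 and 5 unblocked, 12 and 24 on upper quartiles, 10 and 28 on FPKM), with 2 exceptions. Kdm6b, which removes the repressive methyl marks of histone H3 lysine 27, stood at 25.9, 17.8 and 13.3 CPM in CON 1 to 3 and 178, 202 and 219 CPM in LPS 1 to 3 (log2 fold change 3.39, SE 0.17, adjusted p = 7.62e-08). Arid5a, an AT-rich interaction domain protein that also binds and stabilises inflammatory mRNAs, stood at 19.2, 14.5 and 11.7 CPM in CON 1 to 3 and 98.3, 77.8 and 64 CPM in LPS 1 to 3 (log2 fold change 2.40, SE 0.059, adjusted p = 2.06e-09). Both rose in all 3 pairs with no overlap, and Arid5a did so by nearly the same factor in each, 2.35, 2.42 and 2.44 on the log2 scale. Chd1, a chromatin remodeller, rose 1.58-fold, the methyltransferase gene Dot1l 1.47-fold and the BET protein gene Brd2 1.41-fold, while its relative Brd3 fell 1.5-fold, Setd1b 1.45-fold, the deacylase gene Sirt7 1.36-fold and the acetyltransferase gene Ep300 1.31-fold. The abundant Hmga1 and Arid1a were not called (log2 differences 0.07 and -0.08). Arid1a was called without CON 2 (adjusted p = 0.0482).

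**Figure D3:**
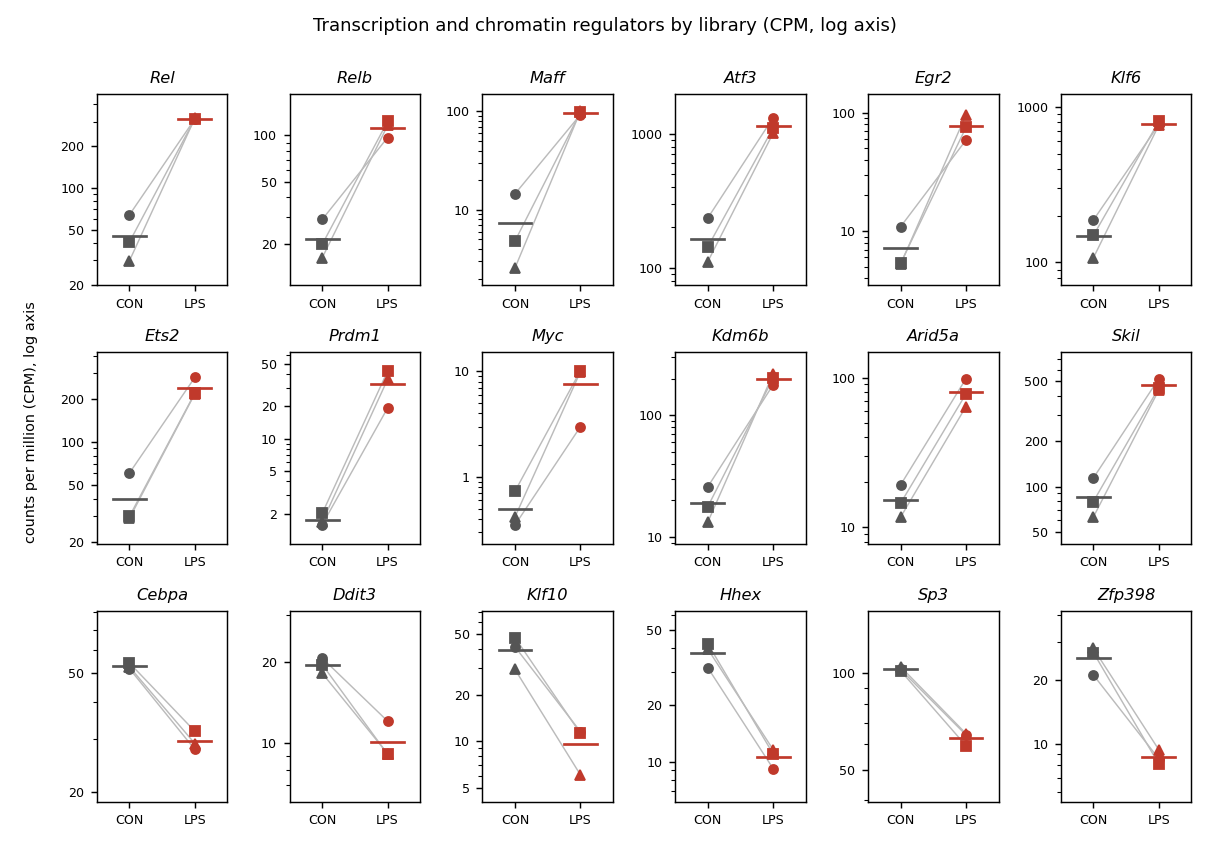
CPM (y axis, log scale, own range per panel) of 18 transcription and chromatin regulators in the 3 CON libraries (grey) and the 3 LPS libraries (red); circles, squares and triangles are replicates 1, 2 and 3, thin lines join equal numbers and bars are means. Rel to Skil lie higher and Cebpa to Zfp398 lower in every LPS library, and CON 1 is the highest CON library for most of the rising genes.

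Receptors for microbes showed a few large rises and smaller falls, and which direction was more frequent differed between the fits. Pattern recognition receptors detect microbial molecules at the surface, in endosomes or in the cytosol. Of the Toll-like, NOD-like, RIG-I-like and DNA sensors, 9 of 30 tested members rose and 12 fell (10 and 9 without CON 1, 6 and 6 unblocked, 7 and 13 on upper quartiles, 7 and 14 on FPKM). The rises were large: Tlr2, which senses bacterial lipoproteins, stood at 203, 93.1 and 53.8 CPM in CON 1 to 3 and 1164, 1280 and 1268 CPM in LPS 1 to 3 (log2 fold change 3.49, SE 0.37, adjusted p = 2.35e-05). Nod2, the cytosolic sensor of muramyl dipeptide, stood at 16.5, 12 and 8.99 CPM in CON 1 to 3 and 87.4, 96.6 and 113 CPM in LPS 1 to 3 (log2 fold change 2.98, SE 0.17, adjusted p = 2.23e-07). Nlrp3, the inflammasome sensor, rose 12.7-fold, Cd14, the co-receptor of LPS, 7.95-fold and Ifih1, the RNA sensor MDA5, 5.45-fold. Other Toll-like receptors fell: the RNA sensor gene Tlr8 fell from 11.8 ± 3.39 CPM in CON to 5.63 ± 2.29 in LPS (log2 fold change -1.09, adjusted p = 2.69e-05). Tlr13, a sensor of bacterial RNA, fell from 45.3 ± 5.26 CPM in CON to 28.7 ± 1.49 in LPS (log2 fold change -0.65, adjusted p = 5.69e-06). The lipopeptide co-receptor gene Tlr6 fell 1.47-fold and the flagellin receptor gene Tlr5 1.4-fold. Tlr4 itself, the receptor of LPS, stood at 56, 68.2 and 75.7 CPM in CON 1 to 3 and 49.2, 53.4 and 52.1 CPM in LPS 1 to 3 (log2 fold change -0.36, SE 0.063, adjusted p = 0.000833), so every LPS library lay below every CON library by a small margin. Mavs, the mitochondrial adaptor of RNA sensors, fell 1.59-fold, and Tlr7 and Aim2 were not called (log2 differences 0.12 and 0.10). Tlr2 had a log2 fold change of 4.20 without CON 1. Tlr8 and Tlr4 were not called without the block (adjusted p from 0.0756 to 0.0927). Aim2 was called without CON 2 (adjusted p = 0.0142).

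Of C-type lectins and scavenger receptors, 12 of 28 tested members rose and 4 fell (11 and 3 without CON 1, 6 and 1 unblocked, 9 and 8 on upper quartiles, 9 and 9 on FPKM). Clec4e, the receptor Mincle for mycobacterial and damage-associated lipids, stood at 154, 92.3 and 65 CPM in CON 1 to 3 and 702, 688 and 775 CPM in LPS 1 to 3 (log2 fold change 2.83, SE 0.23, adjusted p = 3.56e-06). Its neighbour family member Clec4d rose 1.56-fold. Lrp12, of the lipoprotein receptor family, rose 2.12-fold. The most abundant scavenger receptor genes of the list, Lrp1, Cd68 and Cd36, were not called, at log2 differences of 0.05, -0.01 and 0.09. Lrp12 was not called without the block (adjusted p = 0.063). Cd36 was called without CON 2 (adjusted p = 0.0377).

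Of Fc, complement and paired immune receptors, 12 of 39 tested members rose and 7 fell (13 and 6 without CON 1, 6 and 1 unblocked, 10 and 14 on upper quartiles, 9 and 17 on FPKM). C5ar1, the receptor of the complement fragment C5a, stood at 147, 104 and 130 CPM in CON 1 to 3 and 480, 567 and 614 CPM in LPS 1 to 3 (log2 fold change 2.12, SE 0.12, adjusted p = 1.99e-07). The groups did not overlap, and its decoy relative C5ar2 fell 1.32-fold. The inhibitory receptor genes Lilrb4a and Lilr4b, close copies and therefore uncertain, rose 2.49-fold and 2.93-fold. The complement component gene C3 rose from 16.7 ± 7.46 CPM in CON to 33.4 ± 2.51 in LPS (log2 fold change 1.03, adjusted p = 0.000216). Cd300lb, an activating receptor of myeloid cells, stood at 77, 105 and 133 CPM in CON 1 to 3 and 27.5, 30.4 and 39.1 CPM in LPS 1 to 3 (log2 fold change -1.69, SE 0.087, adjusted p = 1.03e-07), the largest fall in the list. C5ar2 was not called without CON 3, LPS 1, LPS 3 or the block (adjusted p from 0.0533 to 0.576).

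Of receptors for cytokines and growth factors, the changes were mostly under 2-fold (20 of 52 tested members rose and 11 fell; 21 and 9 without CON 1, 8 and 5 unblocked, 14 and 16 on upper quartiles, 9 and 18 on FPKM). Il10ra, the receptor of the anti-inflammatory interleukin-10, rose from 82.7 ± 16 CPM in CON to 177 ± 24.1 in LPS (log2 fold change 1.09, adjusted p = 7.10e-05). Ifngr1, the interferon-gamma receptor, rose from 43.2 ± 4.66 CPM in CON to 88.4 ± 5.4 in LPS (log2 fold change 1.03, adjusted p = 6.73e-07). Il2rg, the common gamma chain, rose 1.4-fold. Csf1r, the growth factor receptor that macrophages depend on and the most abundant of the list, rose 1.24-fold. Il6ra fell from 71.2 ± 9.8 CPM in CON to 42.2 ± 3.58 in LPS (log2 fold change -0.75, adjusted p = 3.09e-06). The activin receptor genes Acvr1b and Acvr2b fell 1.62-fold and 1.67-fold, while Acvr2a rose 1.6-fold. The plexin gene Plxnc1 and the neuropilin gene Nrp1 were not called (log2 differences 0.04 and -0.01).

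Death receptors and TRAF adaptors, which carry signals of the TNF family, rose more often than they fell (16 of 32 tested members rose and 5 fell; 18 and 5 without CON 1, 13 and 4 unblocked, 15 and 6 on upper quartiles, 14 and 6 on FPKM). Traf1, a signalling adaptor, stood at 2.8, 1.46 and 0.357 CPM in CON 1 to 3 and 33.5, 47.5 and 47.7 CPM in LPS 1 to 3 (log2 fold change 4.77, SE 0.3, adjusted p = 3.98e-07). The death receptor gene Fas stood at 3.85, 2.07 and 1.07 CPM in CON 1 to 3 and 19, 18.1 and 18.7 CPM in LPS 1 to 3 (log2 fold change 2.99, SE 0.23, adjusted p = 1.76e-06). Cflar, which encodes the caspase inhibitor cFLIP, stood at 171, 93.5 and 68.9 CPM in CON 1 to 3 and 808, 743 and 777 CPM in LPS 1 to 3 (log2 fold change 2.87, SE 0.2, adjusted p = 1.00e-06). A receptor that triggers caspase activation and an inhibitor of that activation thus rose by nearly the same factor. The co-stimulatory receptor gene Cd40 rose 4.78-fold, the ubiquitin ligase gene Birc3 4.35-fold, the kinase gene Ripk2, which acts downstream of NOD2, 4.49-fold and Tnfrsf1b, the TNF receptor 2, 2.07-fold. Relt, an orphan member of the family, stood at 17.7, 25.9 and 29.7 CPM in CON 1 to 3 and 10.7, 10.2 and 9.57 CPM in LPS 1 to 3 (log2 fold change -1.25, SE 0.14, adjusted p = 3.01e-05). The TNF receptor 1 gene Tnfrsf1a fell 1.16-fold. Traf1 had a log2 fold change of 5.74 without CON 1. Tnfrsf1a was not called without CON 3, LPS 1, LPS 3 or the block (adjusted p from 0.0592 to 0.22).

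G protein-coupled receptors and their regulators were the receptor list with the most strong falls: 18 of 71 tested members rose and 23 fell (19 and 21 without CON 1, 16 and 11 unblocked, 18 and 32 on upper quartiles, 16 and 34 on FPKM), 13 and 7 of them at least 2-fold. These receptors sense chemoattractants, lipids and metabolites. Among the rises, Hcar2, which binds hydroxybutyrate and niacin, stood at 2.51, 1.77 and 1.37 CPM in CON 1 to 3 and 26.3, 32.3 and 37.4 CPM in LPS 1 to 3 (log2 fold change 4.07, SE 0.23, adjusted p = 1.99e-07). Ccrl2 stood at 23.6, 5.42 and 0.953 CPM in CON 1 to 3 and 199, 191 and 210 CPM in LPS 1 to 3 (log2 fold change 4.36, SE 0.45, adjusted p = 1.74e-05). Gpr84, a sensor of medium-chain fatty acids, rose from 19.3 ± 15.2 CPM in CON to 100 ± 12.7 in LPS (log2 fold change 2.42, adjusted p = 5.20e-05). Ptafr, the receptor of platelet-activating factor, rose from 9.67 ± 1.42 CPM in CON to 55.5 ± 27.5 in LPS (log2 fold change 2.46, adjusted p = 2.23e-06). The signal-limiting Rgs1 rose 4.14-fold. Among the falls, the sphingosine phosphate receptor gene S1pr2 stood at 74.3, 70.6 and 63.9 CPM in CON 1 to 3 and 25.4, 27.5 and 27.7 CPM in LPS 1 to 3 (log2 fold change -1.37, SE 0.061, adjusted p = 4.66e-08). Gpr183, the oxysterol receptor that guides migration, stood at 40.1, 37.6 and 42.5 CPM in CON 1 to 3 and 16.4, 14.9 and 14 CPM in LPS 1 to 3 (log2 fold change -1.41, SE 0.089, adjusted p = 4.51e-07). The lysophosphatidic acid receptor genes Lpar6 and Lpar5 fell 2.77-fold and 2.64-fold, Rgs2 2.82-fold and Gpr146 stood at 17.7, 28.2 and 29 CPM in CON 1 to 3 and 5.14, 4.56 and 5.48 CPM in LPS 1 to 3 (log2 fold change -2.29, SE 0.14, adjusted p = 3.98e-07). For S1pr2, Gpr183 and Gpr146 every LPS library lay below every CON library, by more than the spread within either group. For Gpr146, one of the 15 largest falls, the lack of overlap was required by the selection. For Ccrl2 and Gpr84 the log2 fold changes without CON 1 were 6.01 and 3.23. Ccrl2 had a log2 fold change of 3.72 without CON 3.

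In the lists of adhesion and antigen-presenting molecules the called changes of at least 2-fold were all rises. Of integrins and adhesion receptors, 8 of 25 tested members rose and 5 fell (9 and 2 without CON 1, 7 rises unblocked, 8 and 9 on upper quartiles, 6 and 11 on FPKM). Icam1, a ligand of leukocyte integrins, rose from 154 ± 61.1 CPM in CON to 1094 ± 188 in LPS (log2 fold change 2.83, adjusted p = 7.22e-06). The fibronectin receptor gene Itga5 stood at 162, 164 and 144 CPM in CON 1 to 3 and 590, 782 and 787 CPM in LPS 1 to 3 (log2 fold change 2.18, SE 0.097, adjusted p = 4.66e-08). Itgav and the hyaluronan receptor gene Cd44 rose 2.83-fold and 2.12-fold. Of co-stimulatory and antigen presentation genes, 14 of 37 tested members rose and 3 fell (15 and 2 without CON 1, 11 and 2 unblocked, 14 and 10 on upper quartiles, 13 and 11 on FPKM). Cd83, a surface protein of activated antigen-presenting cells, rose from 0.517 ± 0.296 CPM in CON to 13.4 ± 5.41 in LPS (log2 fold change 4.66, adjusted p = 2.86e-07). Icosl, the ligand of ICOS, rose from 34.7 ± 8.72 CPM in CON to 181 ± 12.7 in LPS (log2 fold change 2.38, adjusted p = 2.14e-07). Cd274, the inhibitory ligand PD-L1, rose from 15.8 ± 4.51 CPM in CON to 44.2 ± 11.9 in LPS (log2 fold change 1.47, adjusted p = 0.00018). The class I genes H2-K1 and H2-D1, uncertain because of their close relatives, rose 1.63-fold and 1.32-fold. Vsir, the inhibitory receptor VISTA, fell from 563 ± 94.9 CPM in CON to 376 ± 65.2 in LPS (log2 fold change -0.58, adjusted p = 6.92e-07). Cd86 was not called (log2 difference 0.12). Cd83 had a log2 fold change of 4.05 without CON 3. H2-D1 was not called without the block (adjusted p = 0.122). Cd86 was called without CON 2, LPS 2 or SUR 1 (adjusted p from 0.0129 to 0.05).

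Metabolic lists held a few large changes beside many small ones. Of glycolysis, glycogen and lactate genes, 7 of 43 tested members rose and 8 fell (8 and 6 without CON 1, 3 and 4 unblocked, 4 and 14 on upper quartiles, 3 and 16 on FPKM). The sugar transporter gene Slc2a6 stood at 62.9, 47.7 and 52.2 CPM in CON 1 to 3 and 224, 256 and 259 CPM in LPS 1 to 3 (log2 fold change 2.18, SE 0.11, adjusted p = 7.62e-08). The main glucose transporter gene Slc2a1 rose from 141 ± 28.2 CPM in CON to 247 ± 39.1 in LPS (log2 fold change 0.81, adjusted p = 1.10e-07). The lactate exporter gene Slc16a3 rose from 231 ± 54.2 CPM in CON to 354 ± 45.5 in LPS (log2 fold change 0.63, adjusted p = 3.83e-05). On the opposite side Txnip stood at 423, 481 and 344 CPM in CON 1 to 3 and 137, 116 and 98.1 CPM in LPS 1 to 3 (log2 fold change -1.83, SE 0.07, adjusted p = 2.07e-08). The enzymes of the pathway themselves moved by little: Hk2, Pfkl and Pgk1 rose 1.15-fold, 1.21-fold and 1.14-fold, while Gapdh, Aldoa and Ldha were not called (log2 differences 0.05, 0.08 and 0.07). Hk2 was not called without CON 3, LPS 3 or the block (adjusted p from 0.0525 to 0.595). Pfkl and Pgk1 were not called without the block (adjusted p from 0.0831 to 0.626). Gapdh was called without CON 2 (adjusted p = 0.0316), Aldoa without SUR 1 or SUR 2 (adjusted p from 0.0386 to 0.04) and Ldha without SUR 1 or SUR 2 (adjusted p from 0.0413 to 0.0488).

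Of citric acid cycle and pyruvate entry genes, 8 of 39 tested members rose and 3 fell (9 and 2 without CON 1, 3 rises unblocked, 5 and 10 on upper quartiles, 2 and 22 on FPKM), and Acod1 was the only member called at 2-fold or more. The cycle's dehydrogenase subunit genes Dlst and Idh3a rose 1.24-fold and 1.14-fold, while Glul, glutamine synthetase, fell 1.17-fold. Of 75 nuclear genes of oxidative phosphorylation 7 rose and 2 fell (7 and 5 without CON 1, 0 and 0 unblocked, 1 and 20 on upper quartiles, 0 and 39 on FPKM), shares of 9.33% and 2.67%. In the fit reported the latter was the smallest share of falls among the metabolic lists, which the counts on FPKM show to depend on the scaling. At an unadjusted p under 0.05, 3 rose and 1 fell unblocked by edgeR, and 1 rose and 45 fell on FPKM by limma. Cycs, which encodes cytochrome c, rose 1.17-fold, and the complex IV gene Cox4i1 stood at 507 ± 68.8 (CON) and 543 ± 29 CPM (LPS) and was not called (log2 difference 0.10). Idh3a and Glul were not called without the block (adjusted p from 0.177 to 0.572). Cycs was not called without LPS 3 or the block (adjusted p from 0.0555 to 0.332). Cox4i1 was called without CON 2 (adjusted p = 0.00618).

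Fatty acid oxidation genes fell more often than they rose: 2 of 50 tested members rose and 13 fell (3 and 10 without CON 1, 2 and 3 unblocked, 2 and 27 on upper quartiles, 1 and 34 on FPKM), a share of 26% lower, near the 21.7% of all genes, but only 4% higher against 20.1%. Cpt1a, which admits long-chain fatty acids to mitochondria, stood at 84.1, 93.5 and 100 CPM in CON 1 to 3 and 60.9, 70.7 and 76 CPM in LPS 1 to 3 (log2 fold change -0.42, SE 0.046, adjusted p = 2.80e-05). The peroxisomal genes Crot and Abcd2 fell 1.29-fold and 1.33-fold. The exception was Slc25a25, a calcium-regulated carrier of adenine nucleotides, which rose from 11.3 ± 4.45 CPM in CON to 37.6 ± 3.17 in LPS (log2 fold change 1.75, adjusted p = 1.29e-05). Of fatty acid synthesis and desaturation genes, 6 of 41 tested members rose and 11 fell (8 and 9 without CON 1, 2 and 3 unblocked, 3 and 17 on upper quartiles, 3 and 18 on FPKM). Scd2, a desaturase and an abundant gene here, stood at 1772, 1626 and 1670 CPM in CON 1 to 3 and 1139, 1106 and 1108 CPM in LPS 1 to 3 (log2 fold change -0.60, SE 0.029, adjusted p = 7.62e-08). Its relative Scd1 fell 1.46-fold and Gpam, which begins triglyceride synthesis, 1.61-fold. Acsl1, which activates long-chain fatty acids, rose from 76.6 ± 11.1 CPM in CON to 161 ± 35.9 in LPS (log2 fold change 1.06, adjusted p = 1.35e-07). Fasn, the fatty acid synthase, was not called (log2 difference 0.10). Cpt1a and Abcd2 were not called without the block (adjusted p from 0.053 to 0.212). Fasn was called without CON 1 (adjusted p = 0.018).

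Of phospholipid and sphingolipid genes, 8 of 48 tested members rose and 10 fell (9 and 7 without CON 1, 3 and 4 unblocked, 5 and 20 on upper quartiles, 5 and 24 on FPKM). Sgms1, which makes sphingomyelin from ceramide, stood at 36.7, 46.4 and 41 CPM in CON 1 to 3 and 109, 135 and 132 CPM in LPS 1 to 3 (log2 fold change 1.60, SE 0.049, adjusted p = 5.45e-09). The ceramide glucosyltransferase gene Ugcg rose 1.38-fold, and the lysosomal phospholipase gene Pla2g15 and the sphingosine phosphate phosphatase gene Sgpp1 fell 1.65-fold and 1.51-fold. Pla2g4a, which releases arachidonate, rose 1.27-fold. In eicosanoid synthesis (3 of 19 tested members rose and 2 fell; 3 and 2 without CON 1, 1 rise unblocked, 3 and 8 on upper quartiles, 3 and 8 on FPKM), the prostaglandin E synthase gene Ptges rose from 2.25 ± 0.467 CPM in CON to 4.39 ± 1.4 in LPS (log2 fold change 0.95, adjusted p = 0.001). The constitutive cyclooxygenase gene Ptgs1 fell from 15.9 ± 5.96 CPM in CON to 10.4 ± 3.5 in LPS (log2 fold change -0.61, adjusted p = 0.000255), whereas the inducible Ptgs2 rose. Hpgds and Alox5ap, of the prostaglandin D and leukotriene branches, were not called (log2 differences -0.04 and -0.11). Ugcg, Pla2g4a, Ptges and Ptgs1 were not called without the block (adjusted p from 0.0568 to 0.318). Alox5ap was called without CON 2 or LPS 2 (adjusted p from 0.0383 to 0.0389).

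Sterol genes moved in both directions (15 of 38 tested members rose and 8 fell; 16 and 7 without CON 1, 7 and 2 unblocked, 11 and 10 on upper quartiles, 9 and 14 on FPKM). Insig1, a regulator of sterol synthesis, rose 2-fold, and the enzyme genes Idi1 and Cyp51 1.48-fold and 1.34-fold. Other enzymes of the pathway fell: Dhcr7 1.49-fold, Mvd 1.43-fold and Lss 1.27-fold. Of the exporters, Abcg1 stood at 214, 209 and 203 CPM in CON 1 to 3 and 130, 124 and 126 CPM in LPS 1 to 3 (log2 fold change -0.72, SE 0.036, adjusted p = 9.52e-08). Abca1 rose from 171 ± 28.5 CPM in CON to 245 ± 16.4 in LPS (log2 fold change 0.52, adjusted p = 2.15e-05). The esterifying enzyme gene Soat1, abundant here, was not called (log2 difference -0.05). Cyp51, Dhcr7 and Mvd were not called without the block (adjusted p from 0.0589 to 0.0946).

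Of arginine, polyamine and tryptophan genes, 13 of 30 tested members rose and 3 fell (15 and 2 without CON 1, 8 rises unblocked, 9 and 7 on upper quartiles, 8 and 11 on FPKM). The cationic amino acid transporter gene Slc7a2 stood at 29.6, 32 and 32.5 CPM in CON 1 to 3 and 87.7, 122 and 128 CPM in LPS 1 to 3 (log2 fold change 1.83, SE 0.071, adjusted p = 2.13e-08). Il4i1, a secreted amino acid oxidase, rose from 0.592 ± 0.555 CPM in CON to 4.88 ± 1.07 in LPS (log2 fold change 3.02, adjusted p = 0.0011). Gch1, which makes the cofactor of nitric oxide synthase, rose from 10.1 ± 0.595 CPM in CON to 18.1 ± 2.11 in LPS (log2 fold change 0.84, adjusted p = 2.46e-05). Nos2, the inducible nitric oxide synthase, was not among the tested genes. Odc1, which begins polyamine synthesis, rose 1.33-fold, and the argininosuccinate synthase gene Ass1 was not called (log2 difference 0.09). Il4i1 had a log2 fold change of 4.05 without CON 1. Il4i1 had a log2 fold change of 2.28 without CON 3.

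Of serine, glycine and one-carbon genes, 5 of 30 tested members rose and 5 fell (6 and 5 without CON 1, 4 and 3 unblocked, 5 and 13 on upper quartiles, 5 and 12 on FPKM). The mitochondrial folate gene Mthfd2 rose 1.32-fold and the S-adenosylmethionine synthetase gene Mat2a 1.26-fold. Phgdh and Shmt2, of serine and glycine synthesis, were not called (log2 differences 0.04 and -0.03). Of nucleotide genes, 7 of 50 tested members rose and 9 fell (8 and 11 without CON 1, 2 and 3 unblocked, 4 and 22 on upper quartiles, 2 and 27 on FPKM), 1 of them at least 2-fold. This was Cmpk2, a mitochondrial nucleotide kinase also known as an interferon-responsive gene, at 4.73, 2.5 and 2.02 CPM in CON 1 to 3 and 24, 14.9 and 11.9 CPM in LPS 1 to 3 (log2 fold change 2.46, SE 0.12, adjusted p = 6.41e-08). Of NAD genes, 7 of 24 tested members rose and 5 fell (7 and 3 without CON 1, 1 and 1 unblocked, 5 and 7 on upper quartiles, 2 and 8 on FPKM). Parp14 rose from 30.9 ± 6.6 CPM in CON to 83.1 ± 9.34 in LPS (log2 fold change 1.44, adjusted p = 7.62e-08). Nampt, the rate-limiting enzyme of NAD salvage, rose 1.21-fold. Mthfd2 and Nampt were not called without the block (adjusted p from 0.133 to 0.319).

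Redox genes held 2 strong rises (10 of 41 tested members rose and 6 fell; 12 and 4 without CON 1, 5 and 1 unblocked, 8 and 18 on upper quartiles, 7 and 21 on FPKM). Sod2, the mitochondrial superoxide dismutase, rose from 87.2 ± 21.8 CPM in CON to 363 ± 20.9 in LPS (log2 fold change 2.07, adjusted p = 4.16e-07). Slc7a11, the cystine importer, rose from 16 ± 2.98 CPM in CON to 49.5 ± 21.1 in LPS (log2 fold change 1.57, adjusted p = 3.24e-05). The NADPH oxidase subunit genes Cybb and Ncf1 rose 1.76-fold and 1.48-fold, and Txnrd1, thioredoxin reductase, 1.51-fold; Prdx1 and the transketolase gene Tkt were not called (log2 differences 0.09 and -0.05). Of NRF2 targets, 6 of 27 tested members rose and 5 fell (6 and 3 without CON 1, 6 and 1 unblocked, 6 and 15 on upper quartiles, 5 and 17 on FPKM), and Osgin1, an oxidative stress gene, fell from 16.1 ± 4.52 CPM in CON to 6.35 ± 0.815 in LPS (log2 fold change -1.32, adjusted p = 2.09e-05). Of iron, heme, zinc and copper genes, 11 of 42 tested members rose and 6 fell (11 and 5 without CON 1, 7 and 1 unblocked, 8 and 14 on upper quartiles, 8 and 15 on FPKM). The copper transporter gene Slc31a2 stood at 15.4, 14.9 and 14.4 CPM in CON 1 to 3 and 34, 45.6 and 51.5 CPM in LPS 1 to 3 (log2 fold change 1.54, SE 0.11, adjusted p = 1.21e-06). The copper ATPase gene Atp7a rose from 40 ± 3.07 CPM in CON to 76.7 ± 4.74 in LPS (log2 fold change 0.94, adjusted p = 1.01e-07). The importer gene Slc31a1 rose 1.32-fold. For iron, Slc11a2 and the transferrin receptor gene Tfrc rose 1.47-fold and 1.34-fold, the exporter gene Slc40a1 fell 1.22-fold, and the ferritin genes Fth1 and Ftl1, the most abundant of the list, were not called (log2 differences 0.10 and -0.04). The zinc exporter gene Slc30a1 fell 1.54-fold. Ncf1 and Slc40a1 were not called without the block (adjusted p from 0.15 to 0.16). Prdx1 was called without CON 2 (adjusted p = 0.0284), Fth1 without LPS 1 or SUR 1 (adjusted p from 0.0257 to 0.0443) and Ftl1 without LPS 2 (adjusted p = 0.0496).

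**Figure D4:**
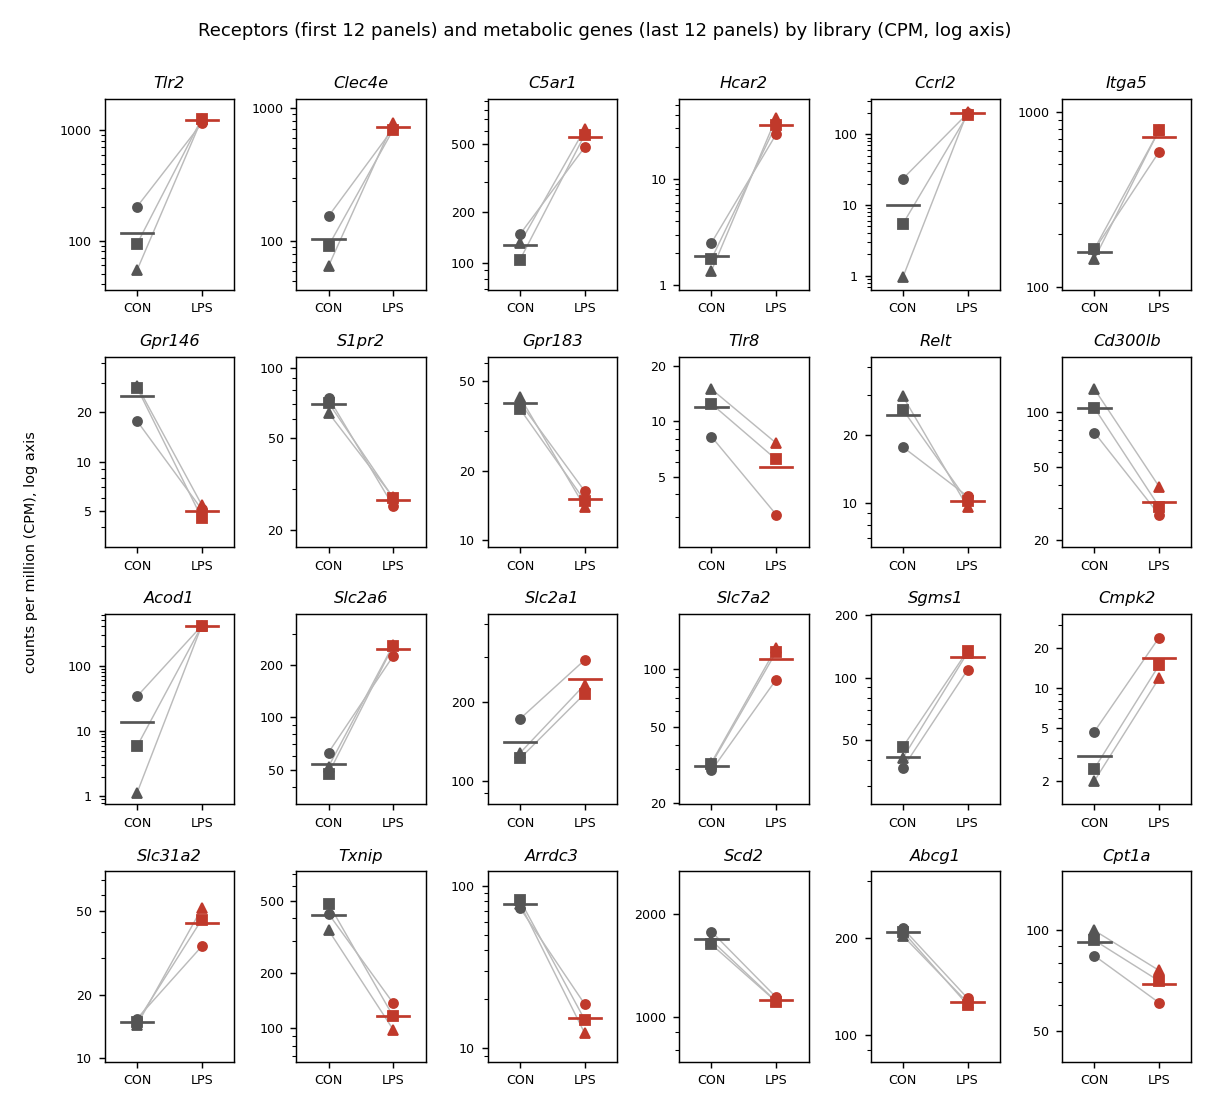
CPM (y axis, log scale, own range per panel) of 12 receptor genes (first 12 panels) and 12 metabolic genes (last 12 panels) in the 3 CON (grey) and 3 LPS (red) libraries; circles, squares and triangles are replicates 1, 2 and 3, thin lines join equal numbers and bars are means. Acod1 and Ccrl2 have the widest CON groups, while S1pr2, Scd2 and Abcg1 have narrow groups that lie apart.

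Many feedback regulators of signalling rose. Of MAPK phosphatases and pathway regulators, 25 of 51 tested members rose and 7 fell (28 and 5 without CON 1, 16 and 3 unblocked, 19 and 11 on upper quartiles, 18 and 13 on FPKM). Phosphatases moved in both directions: Dusp1, which acts on p38 and JNK, stood at 32.1, 15 and 6.37 CPM in CON 1 to 3 and 259, 313 and 289 CPM in LPS 1 to 3 (log2 fold change 4.04, SE 0.33, adjusted p = 3.09e-06). Dusp2, Dusp5, Dusp8 and Dusp16 rose 6.3-fold, 5.68-fold, 21.3-fold and 5.78-fold. Dusp6 and Dusp7, cytoplasmic phosphatases of ERK, fell 4.92-fold and 2.18-fold. Mapk14, the kinase p38-alpha, was not called (log2 difference -0.05). Of TLR4 adaptors, kinases and ubiquitin editors, 32 of 58 tested members rose and 11 fell (32 and 12 without CON 1, 20 and 7 unblocked, 25 and 17 on upper quartiles, 23 and 19 on FPKM). Inhibitors were among the largest rises: beside Tnfaip3, the JAK inhibitor gene Socs3 rose from 21.9 ± 11.3 CPM in CON to 242 ± 54.9 in LPS (log2 fold change 3.43, adjusted p = 7.45e-06). Cish, of the same family, rose 8.38-fold and Tnip3, a partner of A20, 7.05-fold. The ubiquitin ligase gene Peli1 rose 5.15-fold, and the deubiquitinase gene Otud1 7.64-fold. Among the falls were the adaptor genes Ticam2 (1.45-fold) and Tirap (1.36-fold), the kinase complex subunit gene Ikbkg (1.53-fold) and Tab1 (1.49-fold). Irak1 was not called (log2 difference -0.03). For Dusp1, Dusp8, Socs3 and Tnip3 the log2 fold changes without CON 1 were 4.82, 6.06, 4.13 and 3.47.

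Genes that act on mRNA rose more often than they fell: 26 of 65 tested members rose and 5 fell (27 and 5 without CON 1, 15 and 3 unblocked, 18 and 11 on upper quartiles, 17 and 15 on FPKM). Zc3h12a, the endonuclease Regnase-1 that degrades inflammatory mRNAs, stood at 46.5, 28.2 and 16.8 CPM in CON 1 to 3 and 172, 245 and 228 CPM in LPS 1 to 3 (log2 fold change 2.80, SE 0.28, adjusted p = 1.41e-05). Its relative Zc3h12c stood at 60, 32.8 and 21.1 CPM in CON 1 to 3 and 400, 404 and 389 CPM in LPS 1 to 3 (log2 fold change 3.44, SE 0.21, adjusted p = 3.74e-07). Zfp36, tristetraprolin, stood at 370, 169 and 112 CPM in CON 1 to 3 and 915, 885 and 882 CPM in LPS 1 to 3 (log2 fold change 2.16, SE 0.26, adjusted p = 6.60e-05). Each rose in all 3 LPS libraries above every CON library. The deadenylation cofactor genes Btg2 and Btg1 rose 9.73-fold and 3.21-fold. Zc3h12d fell from 26.4 ± 3.74 CPM in CON to 13 ± 4.2 in LPS (log2 fold change -1.04, adjusted p = 1.48e-05). Zfp36l2 fell 1.47-fold, so both families held rises and falls. Khsrp and Cnot1 were not called (log2 differences 0.03 and 0.06). For Zc3h12a and Btg2 the log2 fold changes without CON 1 were 3.42 and 4.17.

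Interferon-stimulated genes were mixed (31 of 68 tested members rose and 12 fell; 32 and 11 without CON 1, 27 and 8 unblocked, 30 and 16 on upper quartiles, 27 and 18 on FPKM), with 23 rises of at least 2-fold. Isg15 stood at 10.3, 3.65 and 1.13 CPM in CON 1 to 3 and 80.4, 69.5 and 71.7 CPM in LPS 1 to 3 (log2 fold change 3.90, SE 0.29, adjusted p = 1.45e-06). Ifit1 stood at 15.5, 3.47 and 1.13 CPM in CON 1 to 3 and 153, 134 and 121 CPM in LPS 1 to 3 (log2 fold change 4.41, SE 0.32, adjusted p = 1.34e-06). In both, CON 1 carried several times the level of CON 3. Irgm2 and Igtp, immunity-related GTPases, fell 2.27-fold and 1.44-fold, Oas2 1.3-fold, and Bst2 and Oas1a were not called (log2 differences -0.10 and 0.08). Of inflammasome genes, 6 of 28 tested members rose and 6 fell (9 and 4 without CON 1, 4 and 3 unblocked, 5 and 11 on upper quartiles, 5 and 12 on FPKM). Beside Nlrp3 and the interleukin-1 genes, Casp4 rose 1.27-fold and the adaptor gene Pycard fell 1.3-fold, while Casp1 and Gsdmd were not called (log2 differences 0.12 and -0.004). For Isg15 and Ifit1 the log2 fold changes without CON 1 were 4.91 and 5.81. Ifit1 had a log2 fold change of 5.23 without LPS 1. Casp4 was not called without the block (adjusted p = 0.0551). Pycard was not called without LPS 2, LPS 3 or the block (adjusted p from 0.0567 to 0.397). Casp1 was called without SUR 1 or SUR 2 (adjusted p from 0.0324 to 0.0447).

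Apoptosis regulators changed in both directions (21 of 49 tested members rose and 14 fell; 23 and 12 without CON 1, 19 and 8 unblocked, 20 and 20 on upper quartiles, 19 and 22 on FPKM), 17 rises and 2 falls at least 2-fold. Among BH3-only genes, which start the mitochondrial pathway, Bcl2l11 stood at 55.9, 57.7 and 43.8 CPM in CON 1 to 3 and 252, 263 and 272 CPM in LPS 1 to 3 (log2 fold change 2.32, SE 0.077, adjusted p = 9.37e-09). Pmaip1 rose from 14.1 ± 4.91 CPM in CON to 67.1 ± 14.9 in LPS (log2 fold change 2.24, adjusted p = 6.31e-06). Bmf stood at 20.4, 25.9 and 29.6 CPM in CON 1 to 3 and 5.39, 6.06 and 7 CPM in LPS 1 to 3 (log2 fold change -2.04, SE 0.1, adjusted p = 9.06e-08). Bid fell 1.4-fold and the initiator caspase genes Casp9 and Casp2 1.71-fold and 1.85-fold. Phlda1, a pleckstrin homology domain protein, rose 19.5-fold, and Bax was not called (log2 difference 0.04).

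Genes of the TORC1, AMPK and autophagy pathways included inhibitors that fell: Ddit4 stood at 37.4, 34.8 and 42.6 CPM in CON 1 to 3 and 9.13, 8.17 and 10.8 CPM in LPS 1 to 3 (log2 fold change -2.03, SE 0.12, adjusted p = 3.14e-07). Sesn1 fell from 101 ± 16.4 CPM in CON to 44.8 ± 6.54 in LPS (log2 fold change -1.17, adjusted p = 5.71e-08). Pik3ip1, an inhibitor of PI3 kinase, fell from 6.37 ± 1.5 CPM in CON to 2.17 ± 0.123 in LPS (log2 fold change -1.54, adjusted p = 7.24e-05). The PI3 kinase subunit gene Pik3r5 rose from 127 ± 5.23 CPM in CON to 389 ± 52.5 in LPS (log2 fold change 1.60, adjusted p = 5.55e-08). The autophagy receptor gene Sqstm1 rose from 966 ± 81.2 CPM in CON to 1670 ± 81.4 in LPS (log2 fold change 0.79, adjusted p = 2.23e-07). The list as a whole was divided (16 of 75 tested members rose and 20 fell; 18 and 18 without CON 1, 10 and 9 unblocked, 13 and 33 on upper quartiles, 11 and 34 on FPKM). Of lysosomal hydrolase and V-ATPase genes, 8 of 69 tested members rose and 5 fell (10 and 4 without CON 1, 2 and 1 unblocked, 3 and 32 on upper quartiles, 3 and 41 on FPKM). Ctsc, a protease that activates serine proteases, rose from 133 ± 6.69 CPM in CON to 323 ± 66.3 in LPS (log2 fold change 1.27, adjusted p = 4.57e-07). Ctsd and Ctsb, the most abundant, were not called (log2 differences -0.03 and 0.05). Ctsd was called without LPS 2 (adjusted p = 0.0301) and Ctsb without CON 1 (adjusted p = 0.032).

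Stress and growth genes had more rises than falls with the scaling used here. Of unfolded protein, ATF4 and heat shock genes, 29 of 59 tested members rose and 5 fell (31 and 5 without CON 1, 11 and 2 unblocked, 18 and 10 on upper quartiles, 15 and 15 on FPKM). Ppp1r15a, which reverses the translational arrest of the stress response, stood at 170, 50.3 and 20.1 CPM in CON 1 to 3 and 969, 864 and 803 CPM in LPS 1 to 3 (log2 fold change 3.74, SE 0.47, adjusted p = 8.51e-05). Dnajb4, a heat shock cochaperone, rose from 50 ± 10 CPM in CON to 144 ± 27.6 in LPS (log2 fold change 1.52, adjusted p = 5.12e-09). The stress-induced Nupr1 rose 4.45-fold. The near-identical Hspa1a and Hspa1b, uncertain for that reason, rose 9.4-fold and 9.25-fold. The ER stress kinase gene Eif2ak3 fell 1.57-fold, and the chaperone genes Hspa9 and Hspd1 were not called (log2 differences 0.07 and -0.04). Of ribosome biogenesis genes, 34 of 69 tested members rose and 4 fell (41 and 2 without CON 1, 9 rises unblocked, 20 and 7 on upper quartiles, 15 and 8 on FPKM), a share of 49.3% higher. Rrs1, a ribosome assembly factor, rose from 97.6 ± 20.4 CPM in CON to 207 ± 6.93 in LPS (log2 fold change 1.10, adjusted p = 5.99e-07). Nop58 rose 1.45-fold and Gtpbp4 1.45-fold, and Npm1 was not called (log2 difference 0.09). Ppp1r15a had a log2 fold change of 4.62 without CON 1. Ppp1r15a had a log2 fold change of 3.13 without CON 3. Nop58 was not called without the block (adjusted p = 0.0773). Hspa9 was called without CON 2 or LPS 2 (adjusted p from 0.0307 to 0.0395) and Npm1 without CON 2 (adjusted p = 0.00299).

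Cell cycle and DNA repair genes fell more often than they rose, except that unblocked, rises and falls of cell cycle genes were equal in number. The shares that fell were 29.9% and 27.8%, against 21.7% of all tested genes. The shares that rose were 11.9% and 9.72%, against 20.1%. Of cell cycle genes, 8 of 67 tested members rose and 20 fell (7 and 17 without CON 1, 3 and 3 unblocked, 5 and 30 on upper quartiles, 4 and 38 on FPKM). At least 2-fold were 4 of these rises and 1 of these falls. The proliferation marker gene Mki67 was among the rises (log2 fold change 1.20), and its values in the other fits are not given here. Cdkn1b, the inhibitor p27, fell from 30.2 ± 4.18 CPM in CON to 14.3 ± 2.77 in LPS (log2 fold change -1.08, adjusted p = 3.51e-06). Ccnd1 fell from 247 ± 27.2 CPM in CON to 163 ± 9.22 in LPS (log2 fold change -0.60, adjusted p = 5.69e-06). The replication licensing gene Cdt1 fell 1.47-fold, while Cdkn1a, the inhibitor p21, rose from 334 ± 28.7 CPM in CON to 747 ± 57.5 in LPS (log2 fold change 1.16, adjusted p = 9.13e-08). The 2 inhibitors of the same kinases thus moved apart. Plk2, a stress-responsive kinase, stood at 80.7, 37.2 and 28.2 CPM in CON 1 to 3 and 553, 316 and 268 CPM in LPS 1 to 3 (log2 fold change 3.02, SE 0.074, adjusted p = 2.06e-09). Its differences within replicate numbers were 2.77, 3.08 and 3.24, and Mcm2 and Top2a were not called (log2 differences -0.02 and -0.09). Of DNA repair genes, 7 of 72 tested members rose and 20 fell (6 and 17 without CON 1, 2 and 8 unblocked, 3 and 30 on upper quartiles, 1 and 34 on FPKM). Palb2, which links BRCA1 to BRCA2, fell from 7.14 ± 0.931 CPM in CON to 2.94 ± 0.745 in LPS (log2 fold change -1.27, adjusted p = 3.44e-05). The ligase gene Lig4 fell 1.72-fold and Smug1 1.74-fold.

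Genes of movement and the matrix rose more often than they fell, except that on FPKM rises and falls of actin genes were equal in number. Of actin, myosin and other cytoskeleton genes, 47 of 91 tested members rose and 9 fell (48 and 8 without CON 1, 23 and 1 unblocked, 35 and 20 on upper quartiles, 28 and 28 on FPKM). Marcksl1 stood at 217, 67.3 and 47.3 CPM in CON 1 to 3 and 1391, 1329 and 1221 CPM in LPS 1 to 3 (log2 fold change 3.78, SE 0.36, adjusted p = 1.13e-05). Swap70, which binds Rac and actin, stood at 118, 102 and 95.1 CPM in CON 1 to 3 and 396, 396 and 398 CPM in LPS 1 to 3 (log2 fold change 1.92, SE 0.076, adjusted p = 2.19e-08). Arhgef3, an exchange factor for small GTPases, stood at 13.7, 14.7 and 11.4 CPM in CON 1 to 3 and 57.7, 67.1 and 64.3 CPM in LPS 1 to 3 (log2 fold change 2.25, SE 0.082, adjusted p = 1.68e-08). Swap70 and Arhgef3 had compact groups, while Marcksl1 was far higher in CON 1 than in the other CON libraries. Rhob rose 3.98-fold and Cdc42ep2 6.94-fold, and the tubulin gene Tubb5 fell 1.22-fold. Of matrix proteases and inhibitors, 16 of 39 tested members rose and 8 fell (16 and 7 without CON 1, 13 and 3 unblocked, 14 and 11 on upper quartiles, 15 and 12 on FPKM). The collagenase gene Mmp13 rose from 3.53 ± 2.87 CPM in CON to 31.1 ± 10.1 in LPS (log2 fold change 3.18, adjusted p = 2.11e-07). F3, tissue factor, rose from 0.456 ± 0.146 CPM in CON to 5.24 ± 2.01 in LPS (log2 fold change 3.48, adjusted p = 1.22e-06). Thbd, the anticoagulant receptor thrombomodulin, fell from 1.3 ± 0.511 CPM in CON to 0.307 ± 0.0391 in LPS (log2 fold change -2.04, adjusted p = 0.000917), opposite to F3. Marcksl1 had a log2 fold change of 4.50 without CON 1.

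Of cyclic nucleotide genes, 7 of 33 tested members rose and 6 fell (6 and 4 without CON 1, 2 and 1 unblocked, 3 and 10 on upper quartiles, 2 and 11 on FPKM). Pde4b, a cyclic AMP phosphodiesterase, rose from 25 ± 23.3 CPM in CON to 316 ± 3.34 in LPS (log2 fold change 3.75, adjusted p = 2.21e-05). Rapgef2, an exchange factor for Rap GTPases, stood at 42.1, 25.7 and 25.7 CPM in CON 1 to 3 and 242, 196 and 169 CPM in LPS 1 to 3 (log2 fold change 2.71, SE 0.08, adjusted p = 5.45e-09). The catalytic subunit gene Prkaca of protein kinase A fell 1.22-fold. Of ion channel and calcium genes, 19 of 61 tested members rose and 7 fell (19 and 5 without CON 1, 8 and 2 unblocked, 13 and 12 on upper quartiles, 9 and 18 on FPKM). Clic4, a chloride intracellular channel protein, stood at 527, 417 and 400 CPM in CON 1 to 3 and 1319, 1248 and 1118 CPM in LPS 1 to 3 (log2 fold change 1.46, SE 0.055, adjusted p = 1.84e-08). Rcan1, an inhibitor of calcineurin, rose from 30.7 ± 2.78 CPM in CON to 59.2 ± 11.8 in LPS (log2 fold change 0.94, adjusted p = 7.41e-06). Its relative Rcan3 fell 1.57-fold. The calcium entry channel genes likewise moved apart, with Orai2 1.63-fold higher and Orai1 and Orai3 1.32-fold and 1.25-fold lower. Kcnn4 was not called (log2 difference -0.11). Pde4b had a log2 fold change of 4.79 without CON 1. Prkaca, Orai2, Orai1 and Orai3 were not called without the block (adjusted p from 0.0721 to 0.345). Kcnn4 was called without CON 2 (adjusted p = 0.0247).

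Genes of alternative activation, the state linked to repair and to interleukin-4, rose and fell: 7 of 15 tested members rose and 2 fell (7 and 2 without CON 1, 5 rises unblocked, 7 and 4 on upper quartiles, 6 and 6 on FPKM). Il1rn, the interleukin-1 receptor antagonist, rose from 10.2 ± 0.572 CPM in CON to 45.8 ± 5.9 in LPS (log2 fold change 2.17, adjusted p = 2.38e-08). Myc, Egr2 and Irf4, described above with other lists, were also among the rises. The interleukin-4 receptor gene Il4ra fell 1.24-fold, and Mrc1, the mannose receptor, was not called (log2 difference -0.02). Klf4, also in this list, was not called. Of the 25 members listed 15 were tested. The bar chart of all lists shows where these shares stand beside those of all genes. Il4ra was not called without the block (adjusted p = 0.458).

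**Figure D5:**
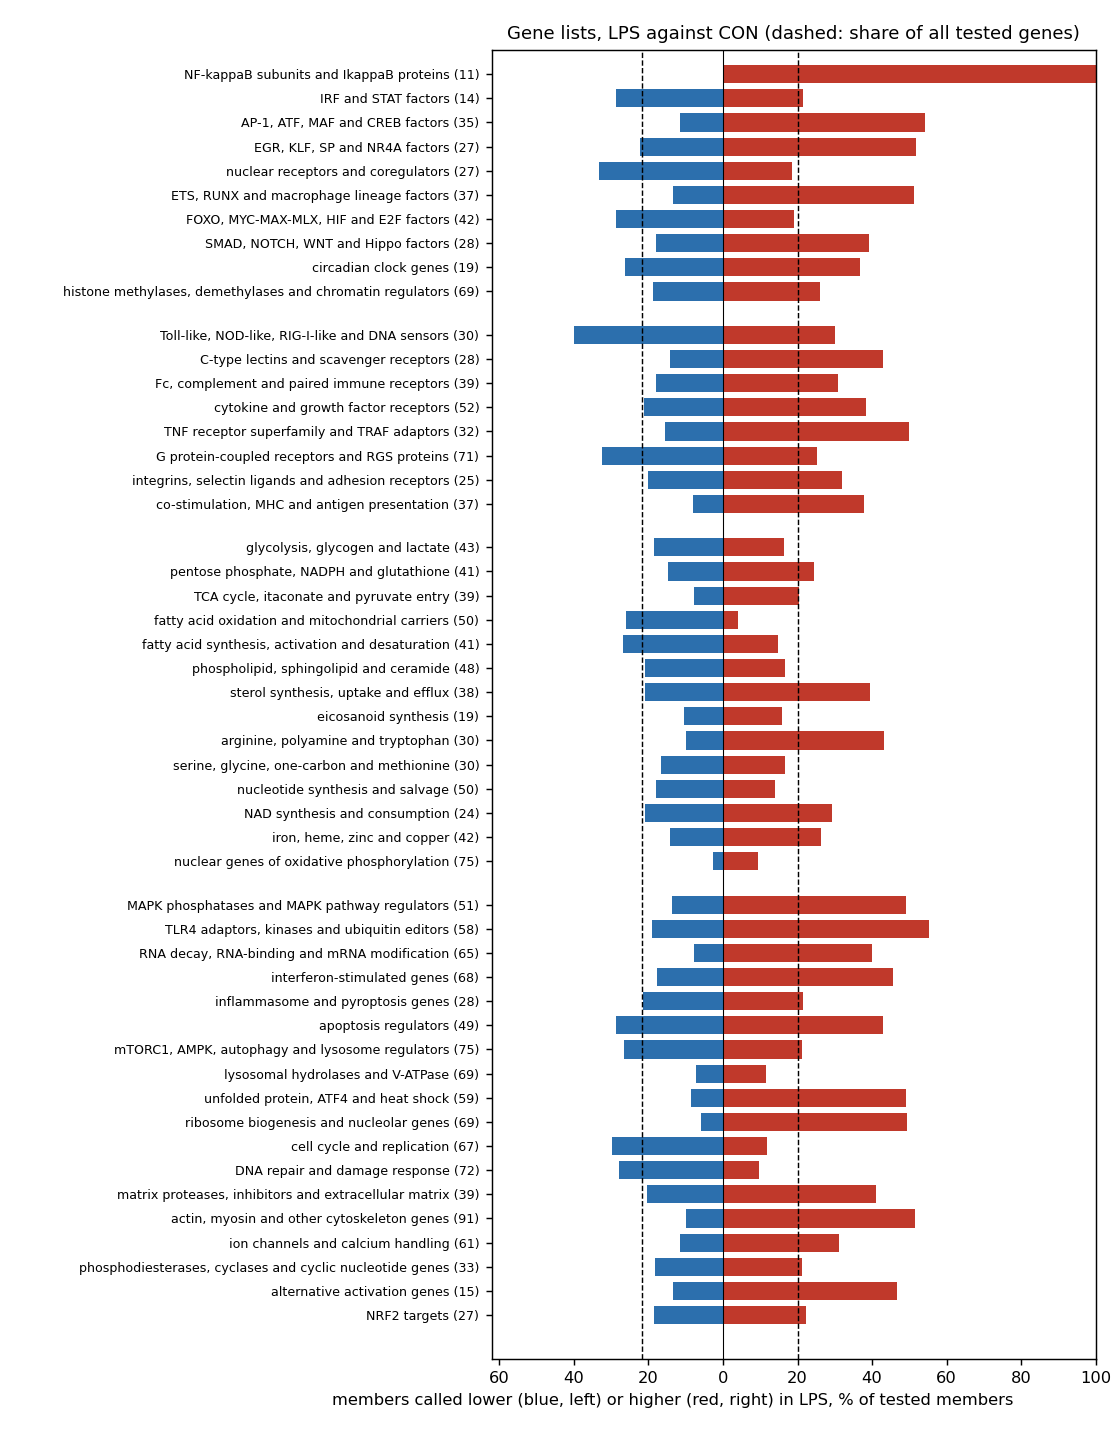
Share of tested members (x axis, %) of each of 50 gene lists (y axis, with the number tested) that was called lower (blue, to the left) or higher (red, to the right) in LPS; the dashed lines mark the shares of all 11281 tested genes, 21.7% and 20.1%. All 11 NF-kappaB and IkappaB genes were higher, and oxidative phosphorylation genes lie inside both lines, as do other lists such as glycolysis and nucleotide genes.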

How the data were processed

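mRNA profiles of 9 MH-S libraries were analysed, 3 per group. The deposited core gene table gives, per the file headers, read counts, FPKM and TPM per gene and library, together with the authors' own log2 fold changes, p-values and q-values, which were not used. Reads were aligned with HISAT2 2.0.4 to GRCm38 (mm10), per the submitters' processing notes; the counting tool, strand setting and annotation were not given in the sources used here. Of the authors' deposited counts 93.4% were whole; how the authors made the others is not stated, so all were handled like expected counts and rounded. No unmapped column was present.

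The fit used edgeR 4.0.16 (R 4.3.3) with TMM scaling (factors 0.934 to 1.04), a filter on low counts by group and a model of group plus replicate number over all 9 libraries (4 residual degrees of freedom), contrast LPS minus CON. The replicate number was used as a block because the comparison was defined that way. Deviations from the group means correlated between same-numbered CON and LPS libraries (r = 0.70, 0.49 and 0.43 for numbers 1, 2 and 3). Different numbers gave -0.57 to 0.38. CON 2 with LPS 3 (0.35) and CON 3 with LPS 2 (0.38) came near the same-numbered values of 2 and 3. CPM are TMM-scaled and pair differences use a prior count of 2. The fit was first checked on simulated counts. Alternatives were the fit without the block, 6 libraries only, upper-quartile and DESeq2 1.42.0 size factors, no filter, DESeq2, limma-voom (limma 3.58.1), limma on log2(FPKM + 0.1) and each library left out.

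The gene lists and the members named were chosen with earlier results of these data known. The naming rule took the 15 largest rises and falls whose mean log2 CPM reached 4, without overlap between groups and no cytokine or predicted gene, then up to 6 called genes per direction and 4 abundant uncalled genes per list, and the 3 most abundant genes of factor, receptor and metabolic lists, plus Nlrp3, Casp1, Gsdmd, Tlr4, Acod1, Nos2, Irf1 and Dusp6. Some genes that this rule named are not reported here. Promoters were read from RefSeq (GRCm38.p6) and matched by gene identifier. Genes with close copies, overlapping neighbours or antisense partners share reads in ways the counting does not resolve here.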

Additional observations from a re-analysis of the deposited data

How the results depend on the processing

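The numbers of strong changes were steady and those of small changes were not. Genes called higher numbered 2269 and genes called lower 2445 in the fit reported. Without the replicate block they numbered 1013 and 1056, with upper-quartile scaling 1468 and 4018, and on log2(FPKM + 0.1) 1198 and 4832. DESeq2 with the block called 1628 genes lower and 1896 higher. Leaving out 1 library at a time gave 1788 to 2424 genes higher and 1894 to 2277 lower, and 391 to 455 higher and 257 to 311 lower by at least 2-fold. Changes of at least 2-fold stayed within 1.5 times of 413 and 287 under each alternative run. The median of all genes moved from -0.01 to -0.10 with upper quartiles and to -0.14 on FPKM, so lists whose members moved little change their balance with the scaling; which scaling fits these cells was not tested. Of 336 genes named, Mki67 left aside, the 282 that were called kept their direction under each alternative run. Of these, 38 lost their call without the block, 6 on FPKM, 4 with upper quartiles and 2 with DESeq2. On FPKM and with upper quartiles 20 and 17 more were called. The block's effect on these 336 genes stands beside them in the text. With library totals of 15729402 to 16613604 counts, precision is lowest for the weakly expressed genes.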
